A study of Mus musculus with 25 samples.

Results

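H3K27ac is an acetylated histone residue found at active promoters and enhancers. Enhancers and promoters of the same locus often touch in the nucleus, and a stretch of chromatin that touches many others is called a hub. In mouse embryonic stem (ES) cells, genes that keep the pluripotent state are known to sit among several enhancers. KLF4 is a zinc finger transcription factor that is used for reprogramming and is expressed in ES cells.

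The regions described here are 998 hub bins, that is, 10 kb bins of the mouse genome with 10 or more H3K27ac-centred contacts in ES cells. They were chosen from the authors' list of H3K27ac HiChIP interactions in ES cells, in which each entry joins a pair of 10 kb bins on 1 chromosome. Entries with 38 or more counts in replicate 1 were kept, the smallest cutoff that lies above the authors' CPM limit on every chromosome, which left 49208 interactions. The number of kept interactions at a bin is called its degree here. Of the 33264 bins with at least 1 kept interaction, the 998 hub bins make up 3.00%. Counts of ES replicate 1 chose the bins, so their degree in ES describes the choice and is not a finding.

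The series holds 25 libraries, 21 of HiChIP and 4 of Hi-C, from mouse fibroblasts before and during reprogramming, ES cells and cells labelled TKO. In Hi-C, DNA ends in contact are joined and sequenced; in HiChIP an antibody then selects the joined fragments that carry a given protein or mark. The ES cells were of the V6.5 line in 2i medium, with 2 libraries for H3K27ac, 4 for KLF4 and 2 for Hi-C. Mouse embryonic fibroblasts (MEFs) came from E13.5 embryos that carried rtTA3, the OKSM cassette and an Oct4-GFP reporter, each in heterozygous state. OKSM encodes reprogramming factors, Klf4 among them, and is switched on by doxycycline through rtTA3. MEFs at passage 3 gave 2 libraries for H3K27ac and 2 for Hi-C. The same MEFs under doxycycline and ascorbic acid gave 3 KLF4 libraries at day 3 and 4 at day 6, so KLF4 at these days includes the product of the cassette. Day 3 cells were taken unsorted and day 6 cells were sorted for the surface marker SSEA1, so time and sort cannot be told apart at day 6. Cells labelled TKO, for which the labels also name V6.5 and 2i, gave 3 H3K27ac libraries at 0 h and 3 after 24 h of doxycycline. The labels do not spell out TKO, and every TKO library is of cells with that label, so doxycycline itself and what it does in these cells cannot be told apart. Nothing in the labels says that replicates came from separate cultures, so p-values measure the spread between these samples, which may be technical.

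HiChIP libraries ranged in depth from 48.7 to 181, in units of 1000000 contacts, as the lists imply them. Each list was read at its own count cutoff, 13 to 38 counts in replicate 1 of the HiChIP lists, because a deeper library needs more counts to pass the authors' CPM limit of 3. Levels between lists therefore compare lists, and not numbers of contacts per cell. ES KLF4 replicates 1 and 2 agreed within sampling noise, as did replicates 3 and 4, while the pairs differed from each other, with a chi-square per degree of freedom of 1.25 to 1.5. TKO replicates 2 and 3 at 0 h (p = 0.0475 in the chi-square test, with 0.01 as the limit) and replicates 1 and 3 at 24 h (p = 0.0991) also differed by about the sampling noise. Each such pair was counted as 1 sample in the tests. The TKO and KLF4 p-values below thus rest on fewer samples than the libraries whose values are printed beside them. The labelled cell types showed in the marker bins. Pou5f1, Sox2 and Tfcp2l1, outside the hub bins, had 9, 6 and 7 contacts in ES and 0 in MEFs. Nanog, Sall4, Dppa5a and Zfp42 had 23, 20, 13 and 10 contacts in ES and 1, 0, 0 and 0 in MEFs. The latter are hub bins, so the rule set their ES degree at 10 or more. Thy1, Col1a1, Vim and Prrx1 had 7, 6, 8 and 9 in MEFs and 0 in ES. Col3a1, Pdgfra and Twist1 had 0 in both, and Esrrb had 1 contact at its start bin in ES.

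Sequences are given first for hub bins that carry the results below. Of the 13 pluripotency genes with a hub bin at their start, Nanog, Tbx3, Fgf4, Klf2 and Zscan10 passed a test described below, and RefSeq promoters of 4 of them follow (GRCm38.p6, the assembly of mm10, 250 bases before the start and 50 after it, 5′ to 3′). Capitals mark GGGNGTGG, a core of the GC-box type bound by KLF proteins, searched on both strands.
Nanog, chr6:122707239-122707538, plus strand: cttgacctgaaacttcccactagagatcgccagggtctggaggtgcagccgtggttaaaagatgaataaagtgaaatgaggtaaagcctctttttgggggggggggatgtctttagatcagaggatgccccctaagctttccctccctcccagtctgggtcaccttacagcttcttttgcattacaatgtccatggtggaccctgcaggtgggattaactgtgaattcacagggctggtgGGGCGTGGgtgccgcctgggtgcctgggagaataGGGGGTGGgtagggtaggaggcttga
Klf2, chr8:72318812-72319111, plus strand: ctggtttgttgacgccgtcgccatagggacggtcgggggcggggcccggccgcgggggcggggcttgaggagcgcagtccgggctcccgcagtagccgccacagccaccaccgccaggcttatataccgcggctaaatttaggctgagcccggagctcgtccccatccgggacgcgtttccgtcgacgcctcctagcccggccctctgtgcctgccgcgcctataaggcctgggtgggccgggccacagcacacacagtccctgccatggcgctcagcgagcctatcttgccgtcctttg
Fgf4, chr7:144861136-144861435, plus strand: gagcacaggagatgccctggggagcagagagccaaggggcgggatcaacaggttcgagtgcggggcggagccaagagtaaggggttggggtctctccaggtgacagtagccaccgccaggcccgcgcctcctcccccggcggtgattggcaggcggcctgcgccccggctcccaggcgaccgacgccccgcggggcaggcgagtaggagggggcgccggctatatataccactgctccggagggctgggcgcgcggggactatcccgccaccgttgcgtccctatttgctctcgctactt
Zscan10, chr17:23600576-23600875, plus strand: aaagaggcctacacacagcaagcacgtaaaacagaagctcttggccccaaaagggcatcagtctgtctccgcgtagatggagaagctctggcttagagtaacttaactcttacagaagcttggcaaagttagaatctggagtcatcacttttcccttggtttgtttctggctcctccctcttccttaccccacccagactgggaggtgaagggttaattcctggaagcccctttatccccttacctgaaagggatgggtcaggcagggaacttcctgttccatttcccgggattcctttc
The Nanog promoter held 2 matches, and those of Klf2, Fgf4 and Zscan10 held 0. Among the other pluripotency genes at hub bins, Tdgf1 had 2 matches, Sox15 and Zfp42 had 1 each and Mycn had 0. Over all 462 RefSeq promoters in hub bins, 107 held a match, 23.2% (95% Wilson interval 19.5 to 27.2). The share was 23.0% (22.1 to 23.9) of 8233 promoters in the other ES anchor bins and 19.4% of all 21262 protein-coding promoters. Median GC content of the 3 sets was 60.2%, 60.3% and 56.3%. Promoters at hub bins thus held the motif about as often as promoters in ES bins of lower degree.

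The hub bin on chromosome 7 from 3210001 to 3220000 holds the start of the microRNA 290 cluster, which is expressed in ES cells. The mature microRNAs listed for its plus strand in the reference used here are shown. They were chosen because this bin had the largest KLF4 change of all hub bins. Capitals mark the seed, bases 2 to 8.
mmu-miR-290a-5p: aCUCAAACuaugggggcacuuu
mmu-miR-290a-3p: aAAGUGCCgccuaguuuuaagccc
mmu-miR-292a-5p: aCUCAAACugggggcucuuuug
mmu-miR-291b-5p: gAUCAAAGuggaggcccucucc
mmu-miR-291b-3p: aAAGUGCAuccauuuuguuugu
miR-290a-5p and miR-292a-5p share the seed CUCAAAC. The remaining 3 have a seed of their own in this set. For Mir292 the reference lists the 5p product alone, so the set may not hold every microRNA of the cluster, and seeds outside it were not compared. Other hub bins hold the hairpins of Mir141 and Mir200c (chromosome 6, 124710001 to 124720000, 13 contacts), Mir182, Mir183 and Mir96 (chromosome 6, 30160001 to 30170000, 10 contacts) and Mir130a (chromosome 2, 84740001 to 84750000, 14 contacts).

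Most hub bins lay close to the threshold. There were 311 bins with 10 contacts, 204 with 11 and 152 with 12, and 1 bin had 33. Just below the threshold, 470 bins had 9 contacts and 699 had 8. Median degree over these neighbours moved in steps in ES replicate 2 and in TKO at 0 h too, with 9 and 9 for the bins with 9 contacts and 10 and 10 for those with 10. Hub bins touched 10869 interactions, 22.1% of those kept, and 1434 of these joined 1 hub bin to another. The median distance of a hub interaction was 40 kb, against 20 kb elsewhere. A bin has few neighbours within 50 kb, so a high degree requires longer contacts, and 40.6% of hub interactions spanned 50 kb or more, against 6.41% elsewhere.

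Hub bins clustered along the chromosome. The 998 bins formed 788 runs of adjacent bins, of which 637 held a single bin and the longest held 12. When joined by their contacts they formed 415 groups: 208 bins stood alone and 52 groups had 5 bins or more. The largest group, 18 bins on chromosome 12 between 86470001 and 86950000, held the starts of Irf2bpl and Cipc and 3 bins inside Esrrb, which encodes an orphan nuclear receptor of the pluripotency network. The bins inside Esrrb had 15, 13 and 10 contacts in ES and 0 each in MEFs. Some other hub bins in the same stretch had 10 or 11 contacts in MEFs, as described below. A group of 9 bins on chromosome 6 between 122340001 and 122790000 held Phc1, Apobec1 and Nanog. Others held Klf2 (10 bins, chromosome 8, 72260001 to 72560000), Mycn (8 bins, chromosome 12, 12780001 to 12950000), Tgif1 (16 bins, chromosome 17), Klf9 (7 bins, chromosome 19) and Sall1 (7 bins, chromosome 8). Chromosome 11 had the most hub bins, 110 or 4.74% of its bins, and chromosome X had 1, or 0.231%.

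A protein-coding gene started in 374 hub bins, 37.5%, against 23.4% of the other bins. A further 76 held only the start of a noncoding gene, 320 lay inside a protein-coding gene without holding a start, and 228 held none of these. In the authors' TKO annotation, 988 hub bins carried an H3K27ac ChIP peak at both 0 h and 24 h, against 56.0% of the other bins. That annotation covers only bins in the TKO lists, so a bin absent from them counts as without a peak. Within 20 kb of an edge of the authors' ES domains lay 39 hub bins (3.91%), against 7.62% of the others, while the median distance to an edge was 170 kb for hub bins and 180 kb for the others. Contacts stayed inside 1 domain about equally often, 96.6% for hub bins and 96.2% for the others. These are shares of bins in 1 list, given without a test.

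The Nanog bin (chromosome 6, 122700001 to 122710000) had 23 contacts in ES replicate 1 and 21 in replicate 2. Nanog encodes a homeodomain factor of the pluripotency core. Its strongest contact lay 60 kb away, in a hub bin inside Slc2a3, a glucose transporter gene, with 358 counts in replicate 1 and 307 in replicate 2. Its farthest contact reached Phc1, a Polycomb gene, at 360 kb, with 63 and 73 counts. Mycn, a proto-oncogene of the MYC family, had its strongest contact 160 kb away at the noncoding gene Platr19, with 234 and 208 counts. Tbx3, a T-box factor gene of naive pluripotency, had its strongest contact 90 kb away, in another hub bin, with 210 and 217 counts. In these 3 bins the strongest contact was not to the next bin, while Sall4, Dppa5a and Tet1 touched the adjacent bin most strongly.

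The bin with the most contacts lay inside Etl4 on chromosome 2, from 20660001 to 20670000. It had 33 contacts in ES, 32 in ES replicate 2, 31 and 32 in TKO at 0 h and 24 h, and 0 in MEFs and in both Hi-C lists. Next came an intergenic bin on chromosome 4 at 141280001 with 29 contacts, the start of the noncoding Gm52564 with 27 and an intergenic bin on chromosome 17 at 66480001 with 27. Usp48, a deubiquitinase gene, had 26. Nanog ranked 10th, Sulf2 had 23 contacts, and the bin of Ifitm5 and Ifitm2 had 22. The farthest contact of any hub bin joined chromosome 4 at 141280001 to a bin inside Tmem51, 790 kb away, with 47 and 46 counts.

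**Figure D1:**
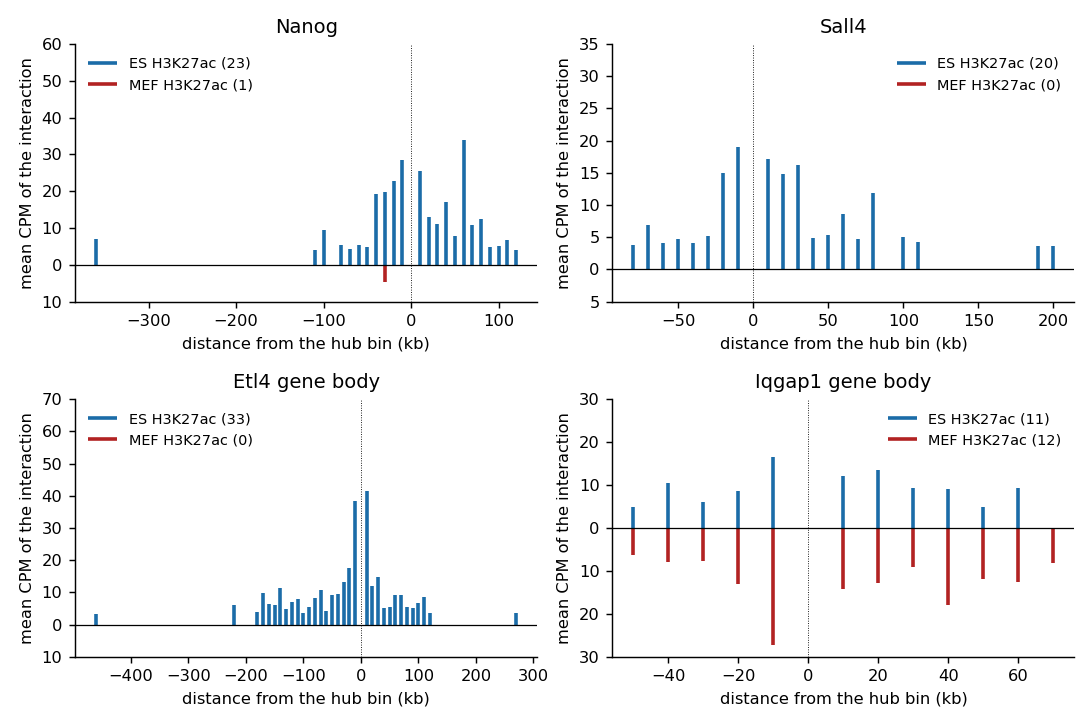
Contacts of 4 hub bins by distance from the bin (x axis, kb), with the mean of the authors' CPM over 2 libraries (y axis, per 1000000 contacts of the same chromosome) upwards for ES and downwards for MEF H3K27ac. Nanog, Sall4 and the Etl4 bin have 23, 20 and 33 contacts in ES and 1, 0 and 0 in MEFs, whereas the Iqgap1 bin has 11 and 12.

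Of 34 pluripotency genes with an ES anchor bin at their start, 13 had a hub bin: Nanog, Sall4, Mycn, Dppa5a, Zscan10, Tdgf1, Sox15, Tbx3, Fgf4, Klf2, Tet1, Zfp42 and Rif1. That is 38.2%, against 449 of 8629 protein-coding genes, 5.20%. The rule and the list were both chosen with results of these data known, so this is a description. Pou5f1, which encodes OCT4, stopped at 9 contacts, Nr5a2 also at 9, Dppa3 at 8, Sox2 at 6, Klf5 at 5 and Klf4 at 4. In LIF, BMP, FGF and related signalling 7 of 20 genes had a hub bin: Nodal, Tgif1, Socs3, Smad7, Tcf7l1, Il6st and Fgfr2. Fgfr2 is placed there only by the authors' annotation, which names it with Ctbp2, while RefSeq places its start elsewhere on chromosome 7. The KLF and SP family had 4 of 17 (Klf9, Klf1, Klf2 and Sp1), chromatin regulators 4 of 29 (Arid1a, Ep300, Ctcf and Jarid2), growth and cell cycle genes 4 of 21, ribosomal protein genes 10 of 79 and zinc finger protein genes 9 of 195. Of 9 fibroblast genes with an ES anchor, Junb, which encodes an AP-1 subunit, was the 1 with a hub bin. The name patterns for histone and microRNA genes found 2 and 5 genes with an ES anchor and 0 with a hub bin. These patterns miss most symbols of both classes, so the 0 is no count of such genes: RefSeq places microRNA hairpins in 23 hub bins, among them those named above, and 2 hub bins of a histone cluster on chromosome 13, named after their values were seen, hold H4c8, H2ac10 and H3c8 (15 contacts) and H3c3 and H2bc3 (14 contacts).

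In the second ES library the same bins had a median of 11 contacts and a minimum of 5, at a cutoff of 39 counts, and 859 of them (86.1%) again reached 10. Of the other bins, 167 did (0.518%). TKO cells at 0 h gave a median of 11, against 3 for the other bins, and 741 hub bins (74.2%) had 10 or more, against 2.04% of the others. At 24 h the median was 10 and 590 hub bins (59.1%) had 10 or more, against 1.32%. A single hub bin had 0 contacts in each TKO list. ES and TKO cells carry the same line name, and the TKO libraries took no part in choosing the bins, so hub degree recurred in libraries of like cells.

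In MEFs the median was 1 contact, against 0 for the other bins. There, 432 hub bins (43.3%) had 0 contacts, against 61.6% of the others. In 8 hub bins (0.802%) there were 10 or more, against 0.149% of the others. The MEF list is described without a test, because its contrast with ES uses the counts that chose the bins. By the same rule at its cutoff of 19 counts, the MEF list had 150 hub bins of its own. The 8 bins in both sets are 0.802% of the ES hubs and 5.33% of the MEF hubs. Of these, 4 lay within 86790001 to 86900000 on chromosome 12, inside the stretch of the largest group of hub bins. They ran from 86790001 to the noncoding Gm26698 and had 10 or 11 contacts in MEFs. The other 4 lay inside Pfdn1 (11 contacts in MEFs), Enah (10), Ski (10) and Iqgap1 (12), and Enah and Iqgap1 encode proteins of the actin cytoskeleton. Among the 13 pluripotency hub bins, 11 had 0 contacts in MEFs and Nanog and Klf2 had 1 each. Il6st, the shared receptor subunit of the LIF pathway, had 8, Socs3 had 6, Cdkn1b had 5 and Junb had 4.

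**Figure D2:**
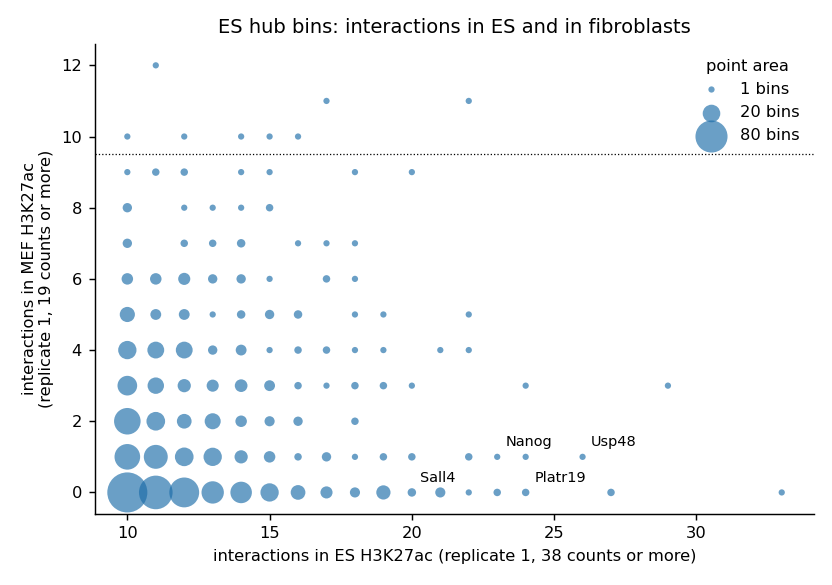
Number of contacts of each hub bin in ES (x axis) and in MEF H3K27ac (y axis), each at the cutoff of its list; point area grows with the number of bins at that position, and the dotted line separates 9 from 10 contacts in MEFs. Most bins lie at the bottom, 432 of 998 at 0 in MEFs, and 8 lie above the line.

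KLF4 HiChIP gave far fewer contacts in all cells. In ES the hub bins had a median of 2 KLF4 contacts, and 95 of them (9.52%) had 0, against 54.7% of the other bins. At day 3 the median was 1, with 423 hub bins (42.4%) at 0, against 73.3% of the other bins. At day 6 the median was 0, with 885 hub bins (88.7%) at 0, against 95.1% of the others. The day 6 list held 1333 interactions at its cutoff, against 13141 at day 3 and 15235 in ES, and no hub bin had more than 2 of them. The largest KLF4 degrees in ES were 10 in a bin inside Ahnak (chromosome 19, 8990001 to 9000000), which also had 10 at day 3, and 9 each at chromosome 4 119000001, at chromosome 15 98990001 and inside Tesk2. The bins of the Klf2 group reached 7, at chromosome 8 72330001, and Zscan10, a zinc finger gene of ES cells, had 6. Nanog, Sall4 and Dppa5a had 3 each.

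In Hi-C, which has no antibody, the hub bins had a median of 4 contacts in ES and 4 in MEFs, against 4 and 3 for the other bins. The ES median rests on the replicate that set the cutoff: it was 7 with the cutoff on replicate 2 and 8 with all listed interactions, while that of MEFs stayed at 4. In ES 83 hub bins (8.32%) and in MEFs 82 (8.22%) had 10 or more, against 5.79% and 5.52% of the others. The Nanog bin had 1 Hi-C contact in either cell type and the Etl4 bin had 0.

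**Figure D3:**
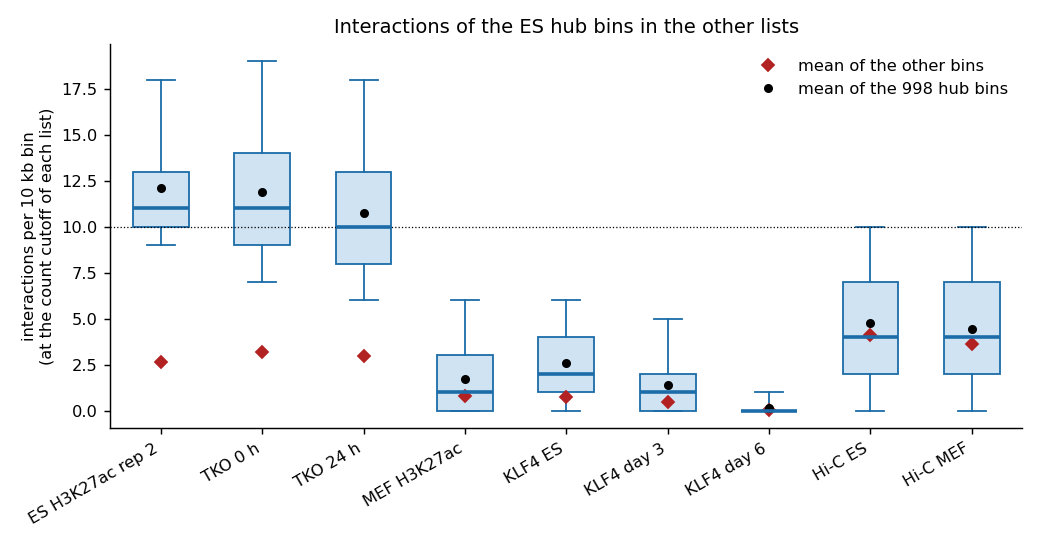
Contacts per hub bin (y axis) in each list other than ES replicate 1, at the count cutoff of the list; boxes show the quartiles with the median as a line, whiskers the 5th and 95th percentiles, black points the mean of the 998 hub bins and red diamonds the mean of the other 32266 bins. Hub bins have medians of 11, 11 and 10 in the first 3 lists, 1 in MEF H3K27ac (0 for the other bins) and 4 in both Hi-C lists.

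The next comparison asked how the strength of the contacts at hub bins changed in TKO cells within 24 h of doxycycline. Counts of the interactions listed at both times were summed per bin, and 40534 bins were tested on the sums with edgeR's quasi-likelihood test, of which 997 were hub bins. Values per library are these sums per 1000000 contacts of the library (summed CPM). Of the hub bins, 262 were called lower at 24 h (26.3%, against 6.11% of all bins) and 32 higher (3.21%, against 3.24%), at a Benjamini-Hochberg adjusted p under 0.05. In either direction 9.35% of all bins were called. DESeq2 called 108 hub bins lower and 4 higher, and with contacts under 30 kb left out 163 were lower and 12 higher. Medians over the 997 bins were 6.47, 7.03 and 6.87 summed CPM at 0 h and 5.69, 6.10 and 5.81 at 24 h, so the libraries of the times did not overlap. The median log2 change was -0.08 (quartiles -0.19 and 0.02), against 0.01 over all bins. These log2 changes are relative to TMM scaling. By contact totals alone the medians were -0.17 for hub bins and -0.09 for all bins, with 328 hub bins called lower and 3 higher, so the 32 calls upwards depend on the scaling.

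The median hub bin held 3334 summed counts, against 428 for the other bins. The 321 bins outside the hubs with at least 3334 counts were called lower in 31.2% of cases and higher in 4.98%, with a median log2 change of -0.08. Depth was not matched, since these bins all lie at or above the hub median and many hub bins lie below it. Tested 1 interaction at a time, 417 of 10887 interactions at hub bins were lower (3.83%, against 2.04% of all interactions) and 47 were higher (0.432%, against 0.576%).

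Nanog contacts were lower after 24 h. Its bin had 14.1, 15.3 and 15.2 summed CPM at 0 h and 10.5, 12.2 and 11.2 at 24 h. The times did not overlap, and the log2 change was -0.26 ± 0.06 (SE; adjusted p = 8.76e-04 by edgeR's quasi-likelihood test). The Slc2a3 bin, its strongest partner, went from 19.6, 22.9 and 22.1 to 15.4, 16.8 and 15.7 (log2 change -0.29). Tbx3 (log2 change -0.27; adjusted p = 8.80e-04 by edgeR) and Fgf4, which encodes a growth factor of the early embryo (-0.22; adjusted p = 0.0103 by edgeR), were also lower. Of the 13 pluripotency hub bins these 3 were called lower and 0 higher, a share near the 26.3% of all hub bins called lower. Sall4 had 9.77, 10.7 and 10.6 summed CPM at 0 h and 10.4, 11.5 and 9.97 at 24 h, which overlap (log2 change 0.17; adjusted p = 0.0653 by edgeR). The calls at Tbx3 and Fgf4 were lost in DESeq2 and with contacts under 30 kb left out, and that at Fgf4 without replicate 2 at 24 h.

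Of the 8 hub bins of signalling genes, 5 were lower and 1 was higher, against 26.3% and 3.21% of all hub bins and 6.11% and 3.24% of all bins. Of the 5, 2 are adjacent bins at Tgif1 that share contacts, and the difference from other hub bins was not tested. Il6st went from 5.76, 5.93 and 6.20 summed CPM to 4.245, 4.395 and 4.262 (log2 change -0.36 ± 0.07, SE; adjusted p = 9.22e-06 by edgeR). Both bins at Tgif1, which encodes a corepressor of TGF-beta signalling, were lower (-0.29 and -0.23), as were Smad7, an inhibitor of the same pathway (-0.27), and the Ctbp2 bin that the authors also assign to Fgfr2 (-0.25). Socs3, a feedback inhibitor of LIF signalling, went from 4.33, 4.25 and 4.68 to 4.68, 4.91 and 4.42 and was called higher (0.19; adjusted p = 0.0484 by edgeR), although its libraries overlapped. That call was lost by contact totals, in DESeq2, with contacts under 30 kb left out, and without replicate 1 or 2 of either time. Nodal and Tcf7l1 were not called. In DESeq2, and with contacts under 30 kb left out, the calls at Tgif1, Smad7 and Ctbp2 were lost too, and that at Il6st was kept.

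In the remaining lists 1 of 4 chromatin, 1 of 4 growth and cell cycle and 3 of 9 zinc finger hub bins were lower and 0 higher, shares near the 26.3% of all hub bins. Jarid2, which encodes a Polycomb cofactor, had 7.27, 7.79 and 7.72 summed CPM at 0 h and 5.49, 5.97 and 5.83 at 24 h (log2 change -0.28; adjusted p = 6.07e-04 by edgeR). Arid1a, Ep300 and Ctcf were not called. Cdkn1b, a cell cycle inhibitor gene, was lower (-0.22), as were Zfp57, an imprinting factor gene (-0.20), Zfp428 (-0.22) and Zfp446 (-0.19). Of the 9 hub bins with ribosomal protein genes 0 were called, with an adjusted p of 0.564 (edgeR) at Rpl13a for instance. The KLF and SP bins gave 0 calls, and Klf2 had 8.12, 9.37 and 8.66 summed CPM at 0 h and 7.98, 9.27 and 8.08 at 24 h. All of the calls named here except that at Jarid2 were lost with contacts under 30 kb left out, all were lost in DESeq2, and each of those at Cdkn1b, Zfp57, Zfp428 and Zfp446 was lost without at least 1 library of each time.

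The largest falls were at bins without a gene start. Adjacent bins on chromosome 2 at 17980001 and 17970001 had log2 changes of -0.80 and -0.77. The first went from 7.80, 8.53 and 8.89 summed CPM to 4.60, 4.53 and 4.19, and its degree from 12 to 8. A bin inside Cdyl2 on chromosome 8 at 116670001 fell by 0.69, from 11 contacts to 5. Bins on chromosome 11 at 26160001 (-0.68) and on chromosome 4 at 101380001 (-0.67) followed. None of these 5 bins had a contact in MEFs, where 43.3% of all hub bins had 0. The bin with the second highest degree, on chromosome 4 at 141280001, had 15.63, 17.04 and 16.98 summed CPM at 0 h and 10.03, 10.71 and 9.67 at 24 h, a log2 change of -0.58 (adjusted p = 7.03e-18 by edgeR).

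Rises were smaller. A bin inside Armc9 on chromosome 1 at 86180001 went from 3.17, 3.50 and 3.13 summed CPM to 4.13, 4.41 and 4.43 (log2 change 0.52; adjusted p = 1.09e-10 by edgeR). The bin of Vmac on chromosome 17 at 56710001 rose by 0.39, a bin inside Dnmt1, the maintenance DNA methyltransferase gene, by 0.35, a bin inside Pitpnc1 by 0.34 and chromosome 10 77190001 by 0.32. The Armc9 and Vmac calls were lost with contacts under 30 kb left out, the Dnmt1 call in DESeq2, the Pitpnc1 call in both and under contact totals, and the chromosome 10 call under contact totals.

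The hub bins were then split by their contacts in other lists. Of the 431 tested with 0 contacts in MEFs, 31.8% were lower and 0.928% higher, with a median log2 change of -0.12. Of the 114 with 5 or more, 20.2% were lower and 5.26% higher, with a median of 0.01. The classes between had medians of -0.07 and -0.04. By ES KLF4 contacts, 13.8% of 94 bins with 0 were lower (median -0.03), and 30.6% of the 124 with 5 or more (median -0.11), with 27.1% in both classes between. Bins with a protein-coding gene start were lower in 19.5% of cases and bins without one in 30.3%. The share also rose with ES degree itself. It was 22.5% of 515 bins with 10 or 11 contacts (median -0.07) and 28% of 321 with 12 to 14 (median -0.08). Of the 161 bins with 15 or more, 34.8% were lower (median -0.11). These differences between classes were not tested.

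**Figure D4:**
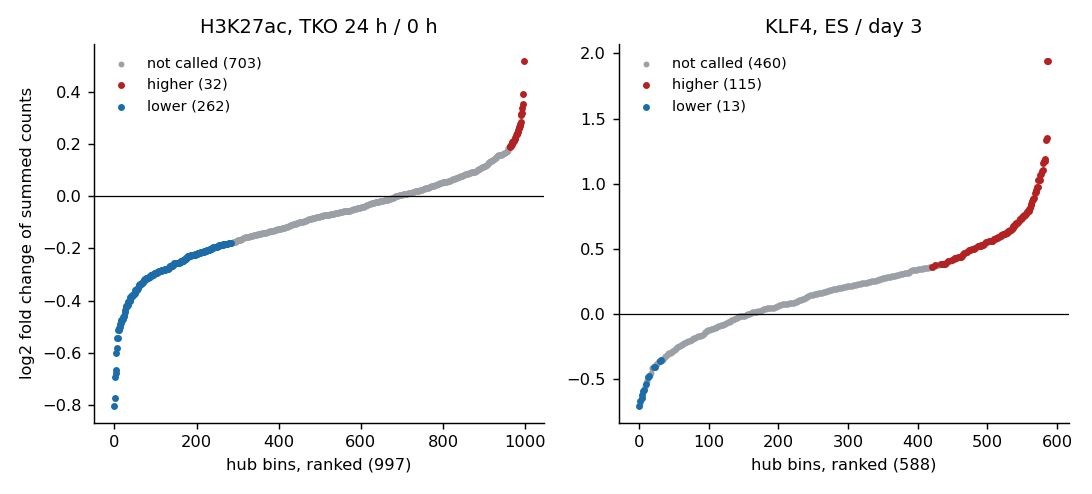
Hub bins ranked by log2 fold change (y axis) of summed counts, for H3K27ac in TKO cells at 24 h over 0 h (left, 997 bins) and for KLF4 in ES over day 3 (right, 588 bins); blue and red mark bins called lower and higher at an adjusted p under 0.05. On the left 262 bins are called lower and 32 higher, on the right 13 and 115.

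KLF4 contacts were then compared between reprogramming day 3 and ES cells, in which 588 hub bins had an interaction listed in both. These bins were tested among 9463 bins in all. In ES 115 were called higher (19.6%, against 4.64% of all bins) and 13 lower (2.21%, against 5.36%), with 10% of all bins called in either direction. The hub bins were chosen for many H3K27ac contacts in ES cells. Whether that choice by itself favours higher KLF4 values in ES was not tested. DESeq2, which gave 132 of the 588 no adjusted p, called 31 higher and 3 lower. Contact totals gave 61 and 2, and contacts of 30 kb or more 42 and 8. Leaving out day 3 replicate 1, 2 or 3 gave 77, 73 or 41 higher, and leaving out ES replicate 4 gave 67. The median log2 change was 0.21, against 0.00 over all bins. The 1295 bins outside the hubs with at least the hub median of 476 counts were higher in 6.41% of cases and lower in 12.7%, again without a match in depth. Among single interactions at hub bins 93 of 1270 were higher (7.32%, against 3.02%) and 31 lower (2.44%, against 4.18%). Median summed CPM over the bins was 0.662, 0.670 and 0.565 in the day 3 libraries and 0.704, 0.723, 0.791 and 0.765 in ES. Each call rests on few contacts, often 1 or 2 per bin, and the 410 hub bins outside the fit had no contact that both lists hold.

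The largest rise was at the microRNA 290 bin and at the adjacent hub bin on chromosome 7 at 3200001. Both values come from the 1 contact that joins them. It had 0.221, 0.309 and 0.233 CPM at day 3 and 0.446, 0.636, 1.40 and 1.49 in ES, so ES replicates 3 and 4 stood above replicates 1 and 2, and all stood above day 3. The log2 change was 1.94 ± 0.21 (SE; adjusted p = 3.02e-13 by edgeR), and 1.67 to 2.2 when 1 library was left out. DESeq2 gave 1.97 with an adjusted p of 0.0553. The same contact was the strongest of that bin in H3K27ac, with 1041 and 1011 counts in ES. In TKO cells the bin went from 11.6, 13.7 and 13.1 summed CPM to 9.41, 11.2 and 9.68 (log2 change -0.19; adjusted p = 0.0295 by edgeR), a call that was lost in DESeq2, with contacts under 30 kb left out and without replicate 2 or 3 at 0 h or replicate 1 or 3 at 24 h.

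Klf2 had 0.956, 0.655 and 0.676 summed CPM at day 3 and 1.09, 1.43, 1.29 and 1.41 in ES. Klf2 encodes a KLF factor of naive pluripotency. The groups did not overlap, the log2 change was 0.80 ± 0.14 (SE; adjusted p = 1.3e-05 by edgeR), and the call held in DESeq2 and without any 1 library. A hub bin next to Klf2, on chromosome 8 at 72330001, had 0.644, 0.560 and 0.482 at day 3 and 0.927, 0.984, 1.20 and 1.16 in ES (0.95). In the Mycn group, Platr19 changed by 1.10 and the bin at 12810001 by 1.16. Zscan10 went from 1.23, 1.19 and 1.16 to 1.98, 1.68, 1.90 and 1.76 (0.60; adjusted p = 2.62e-04 by edgeR), and Fgf4 was called higher (0.46), a call lost in DESeq2, by contact totals, with contacts under 30 kb left out and without any of the day 3 libraries or ES replicate 3. Klf9 was higher by 0.58 and lost its call in DESeq2 and without day 3 replicate 3. Nanog had 0.368, 0.361 and 0.271 at day 3 and 0.286, 0.309, 0.290 and 0.196 in ES, which overlap, and was not called (-0.33; adjusted p = 0.408 by edgeR). Its partner bin inside Slc2a3 was higher (0.65; adjusted p = 7.27e-05 by edgeR).

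Other large rises were at chromosome 18 82770001 (1.35), chromosome 19 23080001, in the Klf9 group (1.33), and inside Fxr1 (1.19). DESeq2 gave these 3 no adjusted p, and the chromosome 18 call was lost without day 3 replicate 3. The bin on chromosome 3 at 87190001 went from 1.73, 1.63 and 1.30 summed CPM at day 3 to 0.824, 1.37, 0.923 and 0.853 in ES (log2 change -0.70; adjusted p = 5.34e-05 by edgeR). ES replicate 2 lay above day 3 replicate 3, so these libraries overlapped. A bin inside Sap30bp fell by 0.66, Gm17619 by 0.64, chromosome 8 72550001 by 0.62 and Stk11, a kinase gene, by 0.59. The calls at Gm17619, chromosome 8 72550001 and Stk11 were each lost by contact totals and without day 3 replicate 1, 3 or ES replicate 4, among others, and the Sap30bp call with contacts under 30 kb left out. The Ahnak bin, with 19 contacts in both lists, fell by 0.41, a call lost by contact totals, with contacts under 30 kb left out and without day 3 replicate 1.

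**Figure D5:**
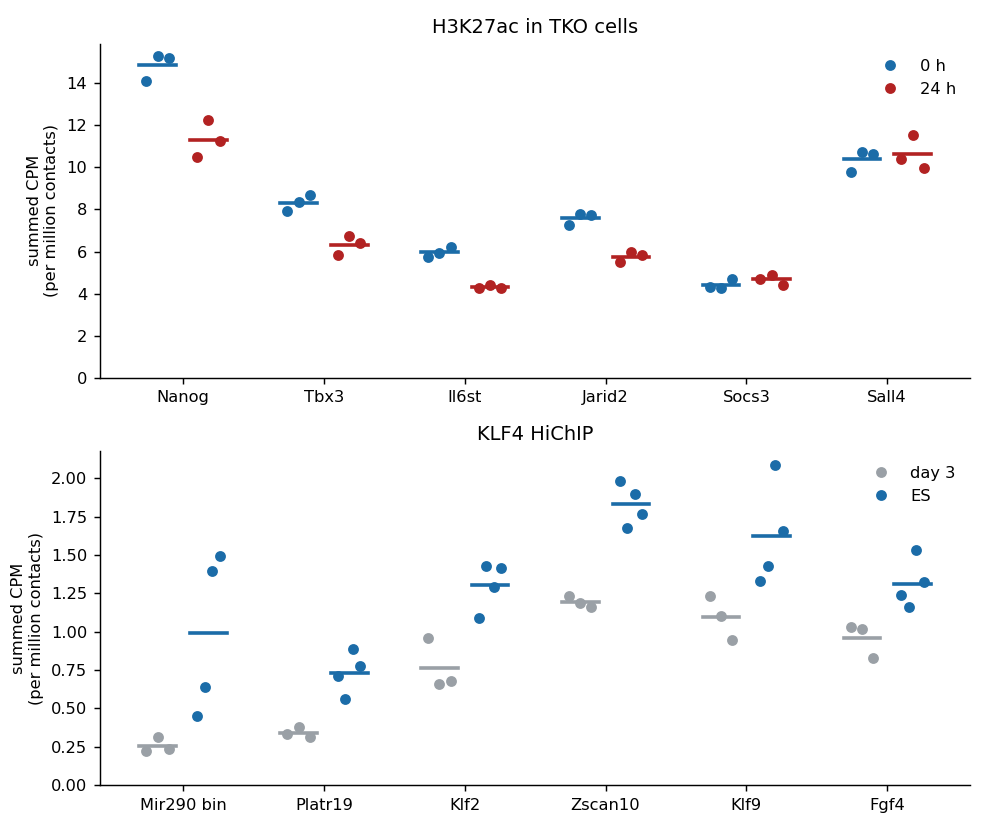
Summed CPM (y axis, per 1000000 contacts of the library) of 6 hub bins in each TKO H3K27ac library (top) and of 6 in each KLF4 library (bottom); points are libraries and bars are group means. At Nanog, Tbx3, Il6st and Jarid2 the 24 h libraries lie below all 0 h libraries, at Socs3 and Sall4 they overlap, and in the lower panel all ES libraries lie above day 3. The lower panel shows only bins that were called higher in ES, and Nanog, not called for KLF4, is absent there.

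The KLF4 and TKO fits share no library. Of the 115 hub bins with higher KLF4 contacts in ES, 42 (36.5%) were lower in TKO cells at 24 h and 3 were higher. Of the 460 hub bins without a KLF4 call, 113 (24.6%) were lower in TKO. In all, 160 bins of the KLF4 fit were lower in TKO, and the rest of these were among the 13 with lower KLF4 contacts in ES. Bins lower in TKO thus occurred with either direction of the KLF4 change, and the classes were not tested against each other. Across the 588 bins in both fits, which share depth and neighbouring bins, the Pearson correlation of the log2 changes was -0.13, given as a description.

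In Hi-C, 774 hub bins were tested among 73677. The 1 called higher in ES (0.129%, against 0.0448% of all bins) lies on chromosome 8 at 85460001 and had 35.1 and 36.8 summed CPM in MEFs and 63.6 and 53.0 in ES, scaled to 1000000 counts of the common interactions (log2 change 0.71; adjusted p = 0.0428 by edgeR). No hub bin was called lower (0.00679% of all bins were, and 0.0516% in either direction). Of 2998 single interactions at hub bins 0 were called by edgeR, against 0.0209% of all interactions higher and 0.0113% lower. At an unadjusted p under 0.05 edgeR gave 120 hub bins, while DESeq2 gave 0 calls and 30 hub bins unadjusted. The call was also lost without either MEF library. Without ES replicate 2 there were 70 hub bins higher and 4 lower, without ES replicate 1 there were 6 higher, and a fit with the replicate block gave 7. The ES Hi-C replicates differed from each other by a chi-square per degree of freedom of 1.5, so the count of Hi-C calls rests on single libraries. The median log2 change of hub bins was 0.06, against 0.00 for all bins. Here too the bins had been chosen in ES cells, and the effect of that choice was not tested.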

How the data were processed

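H3K27ac and KLF4 HiChIP and Hi-C contacts were measured in 25 libraries, and the authors deposited 9 lists of interactions between 10 kb bins. The deposited lists give raw counts per library, a CPM per 1000000 contacts of the same chromosome in HiChIP (the deposited Hi-C column of that name is a signal scaled otherwise and was not used), a distance-normalized ratio and a p-value per interaction, per the file headers. The ratio, the p-value and the score columns deposited by the authors were not used. Reads were aligned with Bowtie2 2.2.3 to mm10, per the submitters' processing notes, and the contact caller is not given in the sources used here. The authors' TKO lists also name genes and H3K27ac peaks per bin, and the authors' domain lists give domain edges.

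Gene starts came from RefSeq (GRCm38.p6) and from the authors' annotation. Interactions in both lists of a comparison were summed per bin and tested with edgeR 4.0.16 (R 4.3.3): filterByExpr, TMM scaling of contact totals, or in Hi-C of the summed counts, glmQLFit and glmQLFTest, with only the compared groups in the fit and Benjamini-Hochberg adjustment over all bins, called at 0.05. Bins joined by a contact share its counts. Libraries of a group whose counts gave a chi-square p of 0.01 or more, where other pairs differed, were summed. The fits were tested on simulated data. DESeq2 1.42.0, other scalings, filters, distances, degree limits and leaving out each library were alternatives. Python 3.11.15, numpy 2.4.6, pandas 2.3.3, scipy 1.17.1 and networkx 3.6.1 handled the tables.

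The hub bins and the gene lists were chosen with earlier results of these data known. Named bins are the 15 of highest degree, those with a gene of the lists, the 5 largest called rises and falls per test, and the 5 with most contacts in the MEF and in the ES KLF4 list. HiChIP depth was 48.7 to 181 in units of 1000000 contacts, and PCR copies without molecular identifiers make counting intervals too narrow. The depth of Hi-C is known only from the counts in the lists.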

Additional observations from a re-analysis of the deposited data

How the results depend on the processing

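Hub bins held medians of 3334 summed counts in TKO, 476 for KLF4 and 463.5 in Hi-C. The number of hub bins, 998, became 2167 at 8 contacts or more, 483 at 12, 161 at 15, 3147 with all listed interactions and 240 with anchors 30 kb or more apart. Called hub bins in TKO cells numbered 294; there were 112 in DESeq2, 175 at 30 kb or more, 57 at 15 contacts or more, 464 single interactions, and 216 to 297 with 1 library left out. For KLF4 the 128 calls became 63 by contact totals, 34 in DESeq2 (132 of 588 had no adjusted p), 50 at 30 kb or more, 35 at 15 contacts or more, and 45 to 148 with 1 library left out: 82, 81 and 45 without day 3 replicate 1, 2 or 3 and 79 without ES replicate 4. The 1 Hi-C call became 0 in DESeq2, at 30 kb or more and for single interactions, and 0 to 74 with 1 library left out, 74 of them without ES replicate 2 and 6 without ES replicate 1. Replicate numbers did not pair the samples, since same-numbered deviations correlated at -0.09 to 0.04, and a fit with the replicate block gave 392 calls in TKO, 92 for KLF4 and 7 in Hi-C. Median degree moved with list length. With all listed interactions it was 2 in MEF, 14 and 12 in TKO at 0 h and 24 h, 2 in KLF4 at day 3, 4 in KLF4 of ES and 8 in ES Hi-C. In lists of equal length, the 1333 strongest interactions each, it was 0 in MEF, TKO at 24 h, KLF4 at day 3, KLF4 of ES and both Hi-C lists and 1 in TKO at 0 h. With the 13141 strongest, an alternative chosen after seeing the data, as was the background of bins at or above the hub median count, it was 0 in MEF and both Hi-C lists and 4 at both TKO times. Cutoffs on another replicate gave 12 in TKO at 0 h (without replicate 1), 0 to 1 in KLF4 at day 3, 2 to 3 in KLF4 of ES and 7 in ES Hi-C. Of the 65 calls at named bins 0 turned direction in any alternative; 24 of 39 in TKO, 14 of 25 for KLF4 and the Hi-C call were lost in at least 1, and 4 KLF4 calls had no adjusted p in DESeq2.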

Other observations

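Some hub bins outside the lists are named here after their values were seen. Apobec1, an RNA-editing enzyme gene near Nanog, had 19 contacts in ES and 0 in MEFs, and was called lower in TKO cells at 24 h (log2 change -0.19; adjusted p = 0.0353 by edgeR). Sall1, a zinc finger factor gene related to Sall4, had 11 contacts in ES and 0 in MEFs, and fell by 0.41 in TKO cells (adjusted p = 3.68e-07 by edgeR). Of the bins inside Esrrb, the one at 86500001 on chromosome 12 was called lower in TKO cells (-0.19; adjusted p = 0.0270 by edgeR) and those at 86490001 (-0.17) and 86470001 (-0.13) were not. Ifitm1 had 14 contacts in ES and 0 in MEFs, while Ifitm3, in a nearby hub bin, had 11 and 6. The IFITM genes encode membrane proteins that act against viral entry.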
